A study of Homo sapiens with 12 samples.

Results

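Heregulin, a natural ligand, was set against AP1510, a synthetic dimeriser, in MCF10A-HER2-FKBP-HA cells. The comparison takes the 3 arrays labelled Heregulin and the 3 labelled AP1510, which are 6 of the 12 arrays of the series, and covers every gene measured. MCF10A is a human breast epithelial line that does not form tumours. All groups carry, by stable transfection, a chimeric full-length human HER2 fused to FKBP and HA tags. The sources used here do not give whether the line is 1 clone, the ligand doses or a vehicle. In all groups serum and EGF had been withdrawn 24 hours earlier, while cholera toxin at 100 ng/ml, hydrocortisone at 500 ng/ml and insulin at 10 microgram/ml stayed in the medium. RNA was taken 48 hours after heregulin, AP1510 or TGF-alpha was added. Each of these groups, and the Untreated cells with a harvest time not given in the sources used here, holds 3 arrays from dishes seeded in triplicate. The p-values therefore measure the spread between dishes and their arrays.

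Heregulin binds HER3 and HER4, receptors that pair with HER2, and HER3 carries many docking sites for PI3K. AP1510 binds FKBP at both of its ends, so it draws the tagged HER2 chains together as homodimers with no natural ligand. The comparison addresses what transcription looks like when the HER3 and HER4 ligand is present rather than forced HER2 homodimers. Innate defence genes such as complement factors, serum amyloids and S100 proteins are textbook targets of NF-kB, of STAT3 and of C/EBP factors in epithelial cells.

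The promoters of 6 genes that rose with heregulin are shown because they hold matches to motifs of factors that their gene groups are named for or known to answer to. They are RefSeq windows of GRCh38.p14 that run from 250 bases before to 50 bases after a start site, written 5′ to 3′ along the gene. NFKB2 has 3 such windows, and the window shown was picked for having the most motif matches. The other genes shown have 1 window each. CXCL1 lies at chr4:73869143-73869442 on the plus strand, NFKBIA at chr14:35404700-35404999 on the minus strand, NFKB2 at chr10:102395455-102395754 on the plus strand and TNFAIP3 at chr6:137867009-137867308 on the plus strand. In these 4 the capitals mark the NF-kB motif, which is GGGA, any base and then TTTCC, on either strand. MT1X at chr16:56682220-56682519 and MT2A at chr16:56608334-56608633, both on the plus strand, have capitals at the metal response motif TGCNCNC on either strand. No match of the NF-kB motif can share a base with a match of the metal response motif. Matches of TGCNCNC on opposite strands can overlap and were each counted, and in the MT1X and MT2A windows none overlap.
CXCL1: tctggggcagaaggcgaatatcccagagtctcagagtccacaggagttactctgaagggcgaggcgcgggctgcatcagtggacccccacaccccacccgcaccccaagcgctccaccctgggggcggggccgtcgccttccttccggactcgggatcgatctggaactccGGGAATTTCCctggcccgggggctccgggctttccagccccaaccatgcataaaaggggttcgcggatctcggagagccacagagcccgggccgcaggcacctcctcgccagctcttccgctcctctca
NFKBIA: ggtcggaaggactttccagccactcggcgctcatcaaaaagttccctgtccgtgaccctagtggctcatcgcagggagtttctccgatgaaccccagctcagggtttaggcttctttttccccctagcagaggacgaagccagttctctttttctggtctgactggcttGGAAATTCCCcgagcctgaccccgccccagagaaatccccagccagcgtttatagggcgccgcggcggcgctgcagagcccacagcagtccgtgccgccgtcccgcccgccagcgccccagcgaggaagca
NFKB2: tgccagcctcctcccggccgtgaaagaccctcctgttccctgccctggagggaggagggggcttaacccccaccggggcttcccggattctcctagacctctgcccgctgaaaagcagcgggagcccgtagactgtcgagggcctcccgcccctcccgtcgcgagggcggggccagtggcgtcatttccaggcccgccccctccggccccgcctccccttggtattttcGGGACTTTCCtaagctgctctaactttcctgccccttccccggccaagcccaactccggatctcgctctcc
TNFAIP3: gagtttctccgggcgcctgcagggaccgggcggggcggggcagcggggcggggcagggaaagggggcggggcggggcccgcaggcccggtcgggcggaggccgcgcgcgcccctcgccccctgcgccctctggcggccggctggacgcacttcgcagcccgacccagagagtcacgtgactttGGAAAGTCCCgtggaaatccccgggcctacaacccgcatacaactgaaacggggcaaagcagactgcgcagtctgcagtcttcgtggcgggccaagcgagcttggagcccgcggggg
MT1X: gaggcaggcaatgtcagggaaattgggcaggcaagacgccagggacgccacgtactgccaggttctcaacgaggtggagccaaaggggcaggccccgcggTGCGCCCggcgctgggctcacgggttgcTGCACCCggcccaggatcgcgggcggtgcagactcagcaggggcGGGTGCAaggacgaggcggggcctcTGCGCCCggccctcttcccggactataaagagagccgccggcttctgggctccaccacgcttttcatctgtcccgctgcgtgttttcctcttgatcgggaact
MT2A: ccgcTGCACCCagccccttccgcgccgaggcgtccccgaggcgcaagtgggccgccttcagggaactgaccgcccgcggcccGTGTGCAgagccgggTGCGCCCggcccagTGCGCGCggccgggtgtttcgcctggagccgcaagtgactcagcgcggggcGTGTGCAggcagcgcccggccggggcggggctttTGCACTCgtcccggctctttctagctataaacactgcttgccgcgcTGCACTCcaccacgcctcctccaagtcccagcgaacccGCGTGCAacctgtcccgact

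A gene with several windows was counted by its window with the most matches, so such genes had more chances of a match. Among 14239 tested genes with a window, 102 (0.716%) held the NF-kB motif. Of the genes higher with heregulin 16 of 458 (3.49%) held it, and of the genes lower with heregulin 2 of 584 (0.342%) did. On the NF-kB pathway list it stood in 8 of 16 genes with a window. These were NFKB1, NFKB2, NFKBIA, NFKBIB, TNFAIP3 and TNIP1, which rose, and REL and NFKBIZ, which did not pass. Of the 10 genes of this list that rose and had a window, 6 held it. On the chemokine and cytokine list it stood in 8 of 22. CXCL1 and IL32 of these rose, and CXCL2, CXCL3, CXCL5, CXCL6, IL6 and LTB did not pass. Of the 4 genes of this list that rose, 2 held it, and CCL20 and CXCL8 did not. On the acute phase and antimicrobial list it stood in 0 of 13, 7 of which rose. At least 4 matches to TGCNCNC were present in 4.31% of all genes with a window and in all 5 metallothionein genes with a window, which held 4 to 8. These matches are letters in a window and not measured binding.

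Levels are given as the deposited log2 RMA intensities, so a difference of 1 is a 2-fold change, and values of 3 arrays follow the order of arrays 1, 2 and 3. Changes are heregulin minus AP1510 with their standard error, and a gene passed at a Benjamini-Hochberg adjusted p under 0.05 in a limma fit over all 12 arrays. Heregulin arrays varied more than the others, with a median SD per gene of 0.132, against 0.107 in AP1510 cells, 0.0963 in TGF-alpha cells and 0.104 in untreated cells. Heregulin array 2 stood apart in its group, with a median difference of 0.191 from array 1 and 0.154 from array 3, where arrays 1 and 3 differed by 0.115. AP1510 array 1 lay at -2.43 on the first principal component, against -12.0 and -14.0 for arrays 2 and 3. Heregulin arrays lay at -8.5 to -6.5 on it and TGF-alpha arrays at 34.0 to 38.3, so this array lay past heregulin on the side of TGF-alpha. Among called genes with separated arrays, AP1510 array 1 was the AP1510 array nearest to heregulin in 52.3% of the 597 higher and in 55.7% of the 718 lower genes. The 6 measured epithelial markers of the line averaged 9.80 to 9.94 with heregulin and 9.87 to 10.0 with AP1510, while TP63 and KRT17 were not measured by a probe set of their own. Of these 6, LAMB3 was called at 0.49 and EPCAM at -1.22. The 10 leukocyte markers averaged 4.98 to 5.07 with heregulin and 5.06 to 5.11 with AP1510, and 0 passed (2 were lower at an unadjusted p under 0.05). The 7 endothelial markers averaged 5.33 to 5.50 with heregulin and 5.27 to 5.42 with AP1510, with KDR called at 0.75 and PECAM1 at -0.46. The 9 fibroblast markers averaged 5.62 to 5.75 with heregulin and 5.30 to 5.44 with AP1510, with LUM the dimmest and 6 of the 9 under the median level of all genes. Of these 9, DCN and FAP were called higher with heregulin. In bulk RNA, a change in the share of some cells and a change of RNA per cell cannot be told apart.

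Heregulin cells differed from AP1510 cells in an innate defence programme that was higher, in metallothioneins and glucocorticoid-responsive genes that were higher, and in a minority of kallikreins, ERK feedback genes and replication genes that were lower. Of 18417 genes tested, 1331 passed (7.23%). Of these 603 were higher with heregulin (3.27%) and 728 were lower (3.95%). Most changes were small: the median size among called genes was 0.50 on the log2 scale, and 137 genes (0.744%) passed and changed by at least 2-fold, 89 upward and 48 downward. All 3 heregulin arrays lay above all 3 AP1510 arrays in 2078 genes (11.3%) and below them in 2101 (11.4%). The counts rested on single arrays: without AP1510 array 2 there were 818 calls, 396 higher and 422 lower, without AP1510 array 3 there were 859, 433 higher and 426 lower, and without heregulin array 2 the lower genes numbered 452. Of 704 measured genes on 40 lists of pathways and markers, 107 rose and 71 fell. These lists were written with earlier results of these data known, so their counts are no independent check. Of the called genes, 73% of the higher and 78.4% of the lower lay above the median level, and the mean levels of the 20 largest rises ran from 4.07 for SAMSN1 to 10.24 for SLC39A8.

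**Figure D1:**
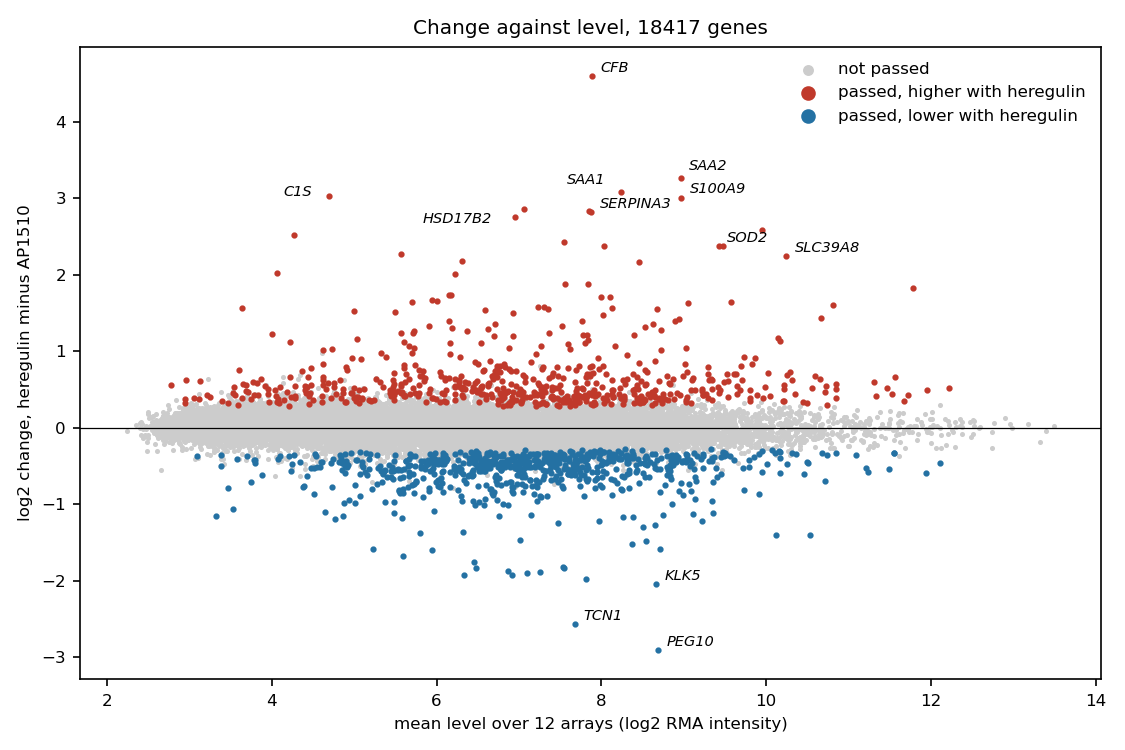
Each point is 1 of 18417 genes, with its mean level over 12 arrays on the x axis (log2 RMA intensity) and its log2 change, heregulin minus AP1510, on the y axis. Red points passed and were higher with heregulin (603), blue points passed and were lower (728), and CFB at 4.60 and PEG10 at -2.91 lie at the ends.

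CFB, factor B of the alternative complement pathway, changed most of all genes tested. Its level was 11.59, 11.35 and 11.33 with heregulin, against 6.58, 6.88 and 7.02 with AP1510, which is a 24.2-fold rise (log2 change 4.60 ± 0.11, adjusted p = 4.8e-13). The 3 probe sets that name CFB gave changes of 4.48, 4.50 and 4.60. C1S, a serine protease of the classical pathway, stood at 7.05, 6.90 and 6.85 with heregulin, against 3.98, 3.92 and 3.80 with AP1510 (log2 change 3.03 ± 0.10, adjusted p = 2.3e-11). The AP1510 levels of C1S lay just above the lower quartiles of their arrays (3.77 to 3.79). C1R, its partner protease and its neighbour in the genome, stood at 7.51, 7.38 and 7.0 with heregulin, against 5.59, 5.77 and 5.51 with AP1510 (log2 change 1.67 ± 0.13, adjusted p = 3.7e-07). For these genes the lowest heregulin array lay more than 1 log2 unit above the highest AP1510 array. C3, the component on which all complement pathways converge, rose 1.43-fold, and CD55, a surface inhibitor of complement, rose 1.31-fold. In all, 5 of 16 measured complement genes rose and 0 fell (1 was lower at an unadjusted p under 0.05). With genes under the median level left out, the rises numbered 3. The list's median change was 0.16, against 0.02 over all genes.

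Acute phase and antimicrobial genes moved with complement: 12 of 20 measured members rose and 1 fell, with a median change of 0.53. SAA2, an acute phase serum amyloid, stood at 11.56, 11.45 and 11.38 with heregulin, against 8.17, 8.34 and 8.10 with AP1510 (log2 change 3.26 ± 0.11, adjusted p = 2.2e-11). SAA1 stood at 10.93, 10.53 and 10.60 with heregulin, against 7.49, 7.76 and 7.60 with AP1510 (log2 change 3.07 ± 0.11, adjusted p = 7.5e-11). The pair is nearly identical in sequence, so their probes may share signal and are not independent measurements. S100A9, a chain of the zinc- and calcium-binding dimer calprotectin, stood at 11.14, 10.96 and 10.94 with heregulin, against 7.56, 8.24 and 8.22 with AP1510 (log2 change 3.01 ± 0.15, adjusted p = 2.0e-09). S100A8, the other chain, stood at 12.15, 11.84 and 11.97 with heregulin, against 8.97, 9.63 and 9.60 with AP1510 (log2 change 2.58 ± 0.15, adjusted p = 3.1e-08). In both S100 genes AP1510 array 1 was the lowest of all 6, and the groups did not overlap.

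The protease inhibitors of the same list rose in all 4 measured cases. SERPINA3, which inhibits chymotrypsin-like proteases, rose 7.04-fold (9.74, 9.55 and 9.35 with heregulin, against 6.88, 6.81 and 6.51 with AP1510). PI3, the elastase inhibitor elafin, rose 5.39-fold (9.77, 9.59 and 9.16 with heregulin, against 6.93, 7.18 and 7.12 with AP1510). SERPINA1, alpha-1-antitrypsin, rose 2.35-fold and SLPI, the secretory leukocyte protease inhibitor, 1.33-fold. S100A7, the skin antimicrobial protein psoriasin, rose 2.35-fold and LCN2, which sequesters iron from bacteria, rose 2.04-fold. S100A12 and HP passed with changes of 0.45 and 0.62, but S100A12 missed the threshold without heregulin array 2 or AP1510 array 3 (adjusted p up to 0.080), and HP missed it in 9 of 12 refits that left out 1 array (adjusted p up to 0.14 without heregulin array 1). The member that fell was TCN1, a vitamin B12-binding protein of secretions, at 6.08, 5.85 and 6.78 with heregulin, against 8.26, 8.98 and 9.16 with AP1510 (log2 change -2.57 ± 0.22, adjusted p = 1.8e-06).

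**Figure D2:**
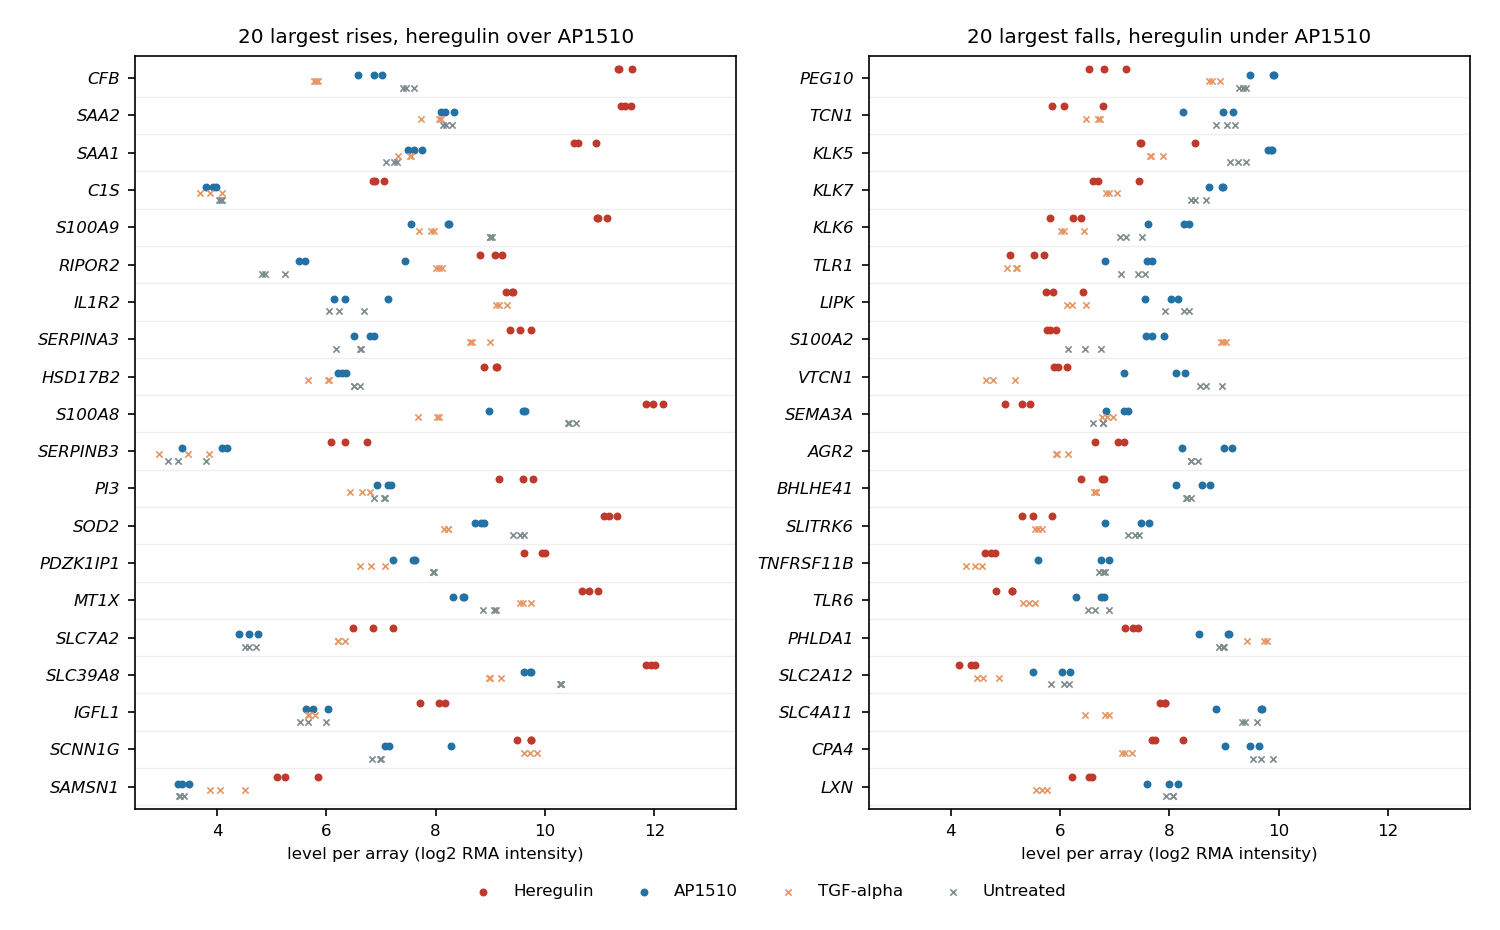
Each row is a gene and each mark 1 array, with the level on the x axis (log2 RMA intensity), for the 20 largest rises (left) and 20 largest falls (right) of heregulin over AP1510. Filled circles are heregulin (red) and AP1510 (blue), which do not overlap in any row because the genes were chosen so, and crosses are TGF-alpha (orange) and Untreated (grey). AP1510 array 1 is the AP1510 array nearest to heregulin in 19 of the 20 falls and in 9 of the 20 rises.

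NF-kB subunits, inhibitors and targets were largely higher with heregulin. Of 18 measured members 11 rose and 0 fell (0 at an unadjusted p under 0.05 were lower), and the median change was 0.53. Among the subunits, NFKB2 stood at 9.17, 9.09 and 9.22 with heregulin, against 8.18, 7.97 and 8.12 with AP1510 (log2 change 1.07 ± 0.09, adjusted p = 8.8e-07), and RELB, its usual partner, rose 1.67-fold. RELA, the classical activating subunit, had a change of -0.01 ± 0.09 (adjusted p = 0.98). Of the inhibitors, TNFAIP3, which encodes the ubiquitin-editing enzyme A20, rose most, with levels of 7.85, 7.74 and 7.96 under heregulin, against 6.24, 6.08 and 6.64 under AP1510 (log2 change 1.53 ± 0.14, adjusted p = 4.2e-06). NFKBIA, which holds NF-kB in the cytoplasm, stood at 10.54, 10.31 and 10.18 with heregulin, against 9.58, 9.38 and 9.56 with AP1510 (log2 change 0.84 ± 0.10, adjusted p = 4.2e-05), and TNIP1, a partner of A20, rose 1.75-fold. SOD2, the mitochondrial superoxide dismutase, was the most changed target, at 11.31, 11.16 and 11.08 with heregulin, against 8.83, 8.72 and 8.88 with AP1510 (log2 change 2.38 ± 0.09, adjusted p = 7.5e-11). TLR2, a receptor of bacterial lipoproteins, rose 2.40-fold, the adhesion molecule ICAM1 1.64-fold and the signalling kinase IRAK2 1.56-fold. NFKB1 and NFKBIB passed narrowly and missed the threshold in 9 and 10 of 12 single-array omissions, at adjusted p up to 0.15 (without AP1510 array 1) and 0.13 (without heregulin array 2).

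Of 30 measured chemokines and cytokines, 4 rose and 0 fell (0 were lower at an unadjusted p under 0.05). CXCL1, a neutrophil attractant, stood at 9.43, 9.47 and 9.19 with heregulin, against 7.35, 7.82 and 7.79 with AP1510 (log2 change 1.71 ± 0.12, adjusted p = 2.4e-07). CCL20 rose 2.03-fold, IL32 1.97-fold and CXCL8, interleukin-8, 1.77-fold. These last genes lay under the median level of all genes, and with such dim genes left out the rises numbered 1. Of the 6 cytokine receptors on the STAT3 list, 5 rose. IL1R2, a decoy receptor for interleukin-1, stood at 9.39, 9.29 and 9.41 with heregulin, against 7.12, 6.14 and 6.35 with AP1510 (log2 change 2.82 ± 0.20, adjusted p = 1.6e-07), and the highest AP1510 value was again that of array 1. Its signalling neighbour IL1R1 rose 1.63-fold, IL6R 1.59-fold, OSMR 1.42-fold and the shared subunit IL6ST 1.41-fold, the last of which missed the threshold without AP1510 array 2 (adjusted p = 0.054). LIFR, the leukaemia inhibitory factor receptor, fell 1.49-fold. STAT3 itself stood at 11.32, 11.17 and 11.06 with heregulin, against 10.64, 10.56 and 10.71 with AP1510 (log2 change 0.55 ± 0.09, adjusted p = 9.8e-04), and CEBPD, an acute phase transcription factor, rose 1.53-fold. Together 8 of 14 members of the STAT3 list rose and 1 fell, with a median change of 0.46. The 8 include the interleukin-1 receptors IL1R2 and IL1R1, and 3 of the 8 factors and targets on the list. SOCS3, PIM1, BCL3, LRG1 and FGL1 did not pass, with changes of 0.29, -0.21, -0.17, 0.17 and 0.20.

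The peptide-loading machinery of MHC class I rose in part. TAP1, a subunit of the peptide transporter, stood at 8.58, 8.47 and 8.41 with heregulin, against 7.29, 7.52 and 7.33 with AP1510 (log2 change 1.11 ± 0.10, adjusted p = 2.2e-06). Its partner TAP2 rose 1.47-fold, the chaperone TAPBP 1.45-fold and the immunoproteasome subunit PSMB9 1.45-fold. These were 4 of 11 measured antigen presentation genes, and 0 fell (0 were lower at an unadjusted p under 0.05). Interferon-responsive genes as a list did not move one way, with 3 of 28 higher and 1 lower and a median change of 0.05. CXCL10 rose 2.17-fold, IFI44L 1.66-fold and IFITM1 1.60-fold, while SAMD9 fell 1.45-fold and missed the threshold in 4 of the 12 refits (adjusted p up to 0.15 without AP1510 array 3).

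Metallothioneins, small cysteine-rich proteins that bind zinc and copper, rose as a family, which was chosen for description after its values were seen. Of 13 measured family members 11 were higher with heregulin, and the median change was 1.04. With genes under the median level left out, the rises numbered 6. MT1X stood at 10.80, 10.98 and 10.68 with heregulin, against 8.53, 8.31 and 8.50 with AP1510 (log2 change 2.37 ± 0.10, adjusted p = 3.8e-10). MT2A stood at 12.62, 12.59 and 12.63 with heregulin, against 11.05, 10.74 and 10.57 with AP1510 (log2 change 1.83 ± 0.14, adjusted p = 3.3e-07). MT1E, MT1G and MT1F rose 3.27-fold, 3.13-fold and 2.94-fold, and MT1M and MT3 did not pass, with changes of 0.64 and 0.21. The genes are near copies of each other in 1 cluster on chromosome 16, and shared probe signal makes the single members uncertain. MT1X and MT2A are also those whose promoters are printed above, with 4 and 8 metal response motifs. Among zinc transporters, also picked after their values were seen, SLC39A8 carries zinc and manganese into the cell and stood at 12.01, 11.95 and 11.85 with heregulin, against 9.62, 9.73 and 9.74 with AP1510 (log2 change 2.24 ± 0.09, adjusted p = 9.8e-11). SLC39A14, its close relative, rose 1.73-fold, and SLC39A10 fell 1.70-fold. These were the 3 of 24 zinc transporter genes that passed. Of the 4 STEAP metalloreductases, picked likewise, STEAP4 and STEAP3 rose, with changes of 0.77 and 0.58.

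Glucocorticoid-responsive genes and the epithelial sodium channel were higher with heregulin, although hydrocortisone was in the medium of every group. Of 14 measured members 9 rose and 0 fell (2 were lower at an unadjusted p under 0.05), with a median change of 0.68. SCNN1G, the gamma subunit of the channel, stood at 9.74, 9.74 and 9.49 with heregulin, against 8.28, 7.14 and 7.08 with AP1510 (log2 change 2.16 ± 0.22, adjusted p = 1.0e-05). SCNN1B, the beta subunit and its neighbour, rose 1.63-fold, and SCNN1A, the alpha subunit, 1.36-fold. ZBTB16, a transcription factor strongly induced by glucocorticoids, stood at 9.21, 9.27 and 9.11 with heregulin, against 8.21, 7.10 and 6.62 with AP1510 (log2 change 1.88 ± 0.26, adjusted p = 2.3e-04). PER1, a clock gene and glucocorticoid target, rose 2.35-fold, TSC22D3, the leucine zipper GILZ, 1.94-fold, the sodium-regulating kinase SGK1 1.75-fold and KLF9 1.58-fold. In SCNN1G, ZBTB16 and PER1, AP1510 array 1 lay nearest to heregulin, and the groups still did not overlap. The receptor NR3C1 and the cortisol-converting enzymes HSD11B1 and HSD11B2 did not pass, with changes of -0.29, 0.15 and -0.47.

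**Figure D3:**
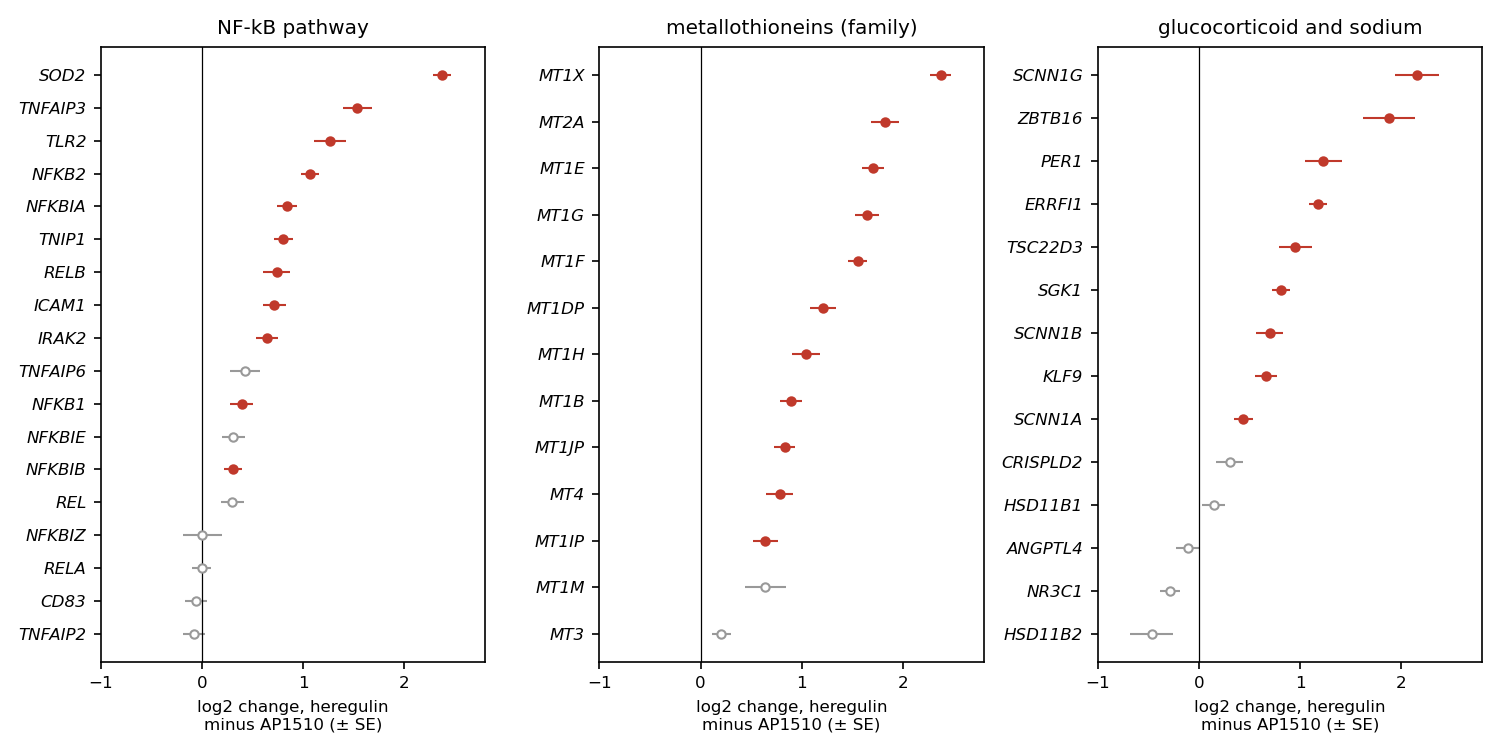
Each point is a gene's log2 change, heregulin minus AP1510, and each bar its standard error, for the NF-kB list (18 genes), the metallothionein family (13) and the glucocorticoid and sodium list (14). Filled red points passed and were higher with heregulin, which were 11, 11 and 9 genes, and open grey points did not pass.

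Clock genes changed in both directions, 5 up and 3 down of 18 measured. The number up was 3 without heregulin array 1, AP1510 array 2 or AP1510 array 3, and 4 without any other single array. The number down was 1 without heregulin array 2 or 3, and 5 without AP1510 array 1. BHLHE41, a repressor of the clock, fell most, at 6.76, 6.39 and 6.81 with heregulin, against 8.12, 8.59 and 8.74 with AP1510 (log2 change -1.83 ± 0.14, adjusted p = 3.6e-07). NFIL3, another repressor, rose 1.71-fold and PER2 1.33-fold.

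Skin barrier genes split by kind. Kallikreins, secreted serine proteases that shed the outer layer of skin, were lower with heregulin in 5 of 16 members of their list, with 0 higher (2 were higher at an unadjusted p under 0.05). KLK5 stood at 7.46, 7.49 and 8.48 with heregulin, against 9.80, 9.87 and 9.88 with AP1510 (log2 change -2.04 ± 0.19, adjusted p = 4.9e-06). KLK7 stood at 6.60, 6.70 and 7.44 with heregulin, against 8.73, 8.99 and 8.97 with AP1510 (log2 change -1.98 ± 0.17, adjusted p = 1.3e-06). KLK6 stood at 5.82, 6.24 and 6.38 with heregulin, against 7.61, 8.26 and 8.35 with AP1510 (log2 change -1.93 ± 0.19, adjusted p = 5.6e-06). For all of them heregulin array 3 was the highest of its group and the groups did not overlap. KLK8 fell 1.54-fold, and KLK10, which fell 1.54-fold, missed the threshold in 4 of the 12 refits (adjusted p up to 0.077 without heregulin array 1). The other 11 members did not pass, the median change of the list was -0.0011, and 8 of the 16 changes were positive.

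Squamous differentiation genes rose in 5 of 37 cases, with 0 lower (1 was lower at an unadjusted p under 0.05), and in 3 without AP1510 array 2. KRT10, a keratin of suprabasal skin cells, stood at 12.64, 12.39 and 12.47 with heregulin, against 11.13, 10.76 and 10.79 with AP1510 (log2 change 1.61 ± 0.11, adjusted p = 9.3e-08). SPRR2A, a cornified envelope precursor, rose 2.87-fold and TGM1, the enzyme that cross-links it, 1.81-fold. Clade B serpins, intracellular protease inhibitors, rose in 4 of 11 cases, with 0 lower (2 were lower at an unadjusted p under 0.05). With genes under the median level left out, 1 rose and 1 fell. SERPINB3 stood at 6.75, 6.09 and 6.33 with heregulin, against 4.18, 4.10 and 3.35 with AP1510 (log2 change 2.51 ± 0.25, adjusted p = 7.1e-06). In AP1510 array 3 SERPINB3 lay under that array's lower quartile (3.77), and the values do not show whether it is above background there. SERPINB4, its near-identical neighbour, rose 2.94-fold, and the pair may share probe signal. SERPINB7 and SERPINB8 rose 1.58-fold and 1.56-fold.

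The remaining large rises belong to several functions. HSD17B2, which inactivates oestradiol and testosterone, stood at 9.11, 9.13 and 8.89 with heregulin, against 6.37, 6.29 and 6.21 with AP1510 (log2 change 2.75 ± 0.11, adjusted p = 9.8e-11). RIPOR2, an inhibitor of the small GTPase RhoA, stood at 9.21, 9.09 and 8.80 with heregulin, against 7.44, 5.60 and 5.50 with AP1510 (log2 change 2.85 ± 0.34, adjusted p = 5.5e-05). PDZK1IP1, a small membrane protein, rose 5.19-fold, SLC7A2, a transporter of cationic amino acids, 4.83-fold, IGFL1, a secreted protein of the IGF-like family, 4.52-fold, and SAMSN1, an adaptor protein, 4.05-fold in the deposited values. The AP1510 levels of SAMSN1, 3.49, 3.36 and 3.29, lay under the lower quartile of their arrays (3.77 to 3.79), and the values do not show whether they are above background. RIPOR2 had the widest spread of these, since AP1510 array 1 lay almost 2 log2 units above its group mates.

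PEG10, an imprinted gene derived from a retrotransposon, fell most. It stood at 6.80, 6.54 and 7.21 with heregulin, against 9.47, 9.91 and 9.90 with AP1510, a 7.53-fold fall (log2 change -2.91 ± 0.15, adjusted p = 3.7e-09). SGCE, the imprinted gene next to it, stood at 6.42, 6.24 and 6.71 with heregulin, against 7.15, 7.18 and 7.58 with AP1510 (log2 change -0.85 ± 0.13, adjusted p = 6.9e-04). Both are expressed from the paternal copy. Of 13 measured imprinted genes 3 fell and 1 rose, and the rise, of GRB10, missed the threshold in 9 of the 12 refits (adjusted p up to 0.14 without AP1510 array 3).

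Toll-like receptors, picked as a family after their values were seen, moved apart from TLR2. TLR1 stood at 5.53, 5.08 and 5.71 with heregulin, against 6.83, 7.68 and 7.60 with AP1510 (log2 change -1.93 ± 0.20, adjusted p = 1.1e-05). TLR6, its close relative on the same stretch of chromosome 4, stood at 5.11, 4.82 and 5.12 with heregulin, against 6.30, 6.74 and 6.81 with AP1510 (log2 change -1.60 ± 0.14, adjusted p = 1.6e-06). Both proteins pair with TLR2 in the recognition of lipoproteins, and TLR2 was higher. TLR3, a receptor of double-stranded RNA, had a change of -0.52, and these were the 4 of 8 Toll-like receptors that passed.

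S100A2, a calcium-binding protein of basal epithelia, went against its S100 relatives, at 5.82, 5.93 and 5.77 with heregulin, against 7.91, 7.69 and 7.58 with AP1510 (log2 change -1.88 ± 0.13, adjusted p = 1.1e-07). Of 19 S100 genes, a family picked after its values were seen, 4 rose and S100A2 was the one that fell. SEMA3A, a secreted axon guidance cue, stood at 5.31, 4.99 and 5.45 with heregulin, against 6.84, 7.17 and 7.25 with AP1510 (log2 change -1.84 ± 0.13, adjusted p = 1.2e-07). VTCN1, an inhibitory ligand of T cells, fell 3.66-fold, AGR2, a disulfide isomerase of secretory cells, 3.56-fold, and TNFRSF11B, the decoy receptor osteoprotegerin, 3.21-fold. LIPK, an acid lipase, fell 3.74-fold, SLITRK6, a neuronal adhesion protein, 3.37-fold, SLC2A12, a glucose transporter, 3.0-fold, SLC4A11, a membrane transporter, 2.87-fold, CPA4, a carboxypeptidase, 2.81-fold, and LXN, an inhibitor of carboxypeptidases, 2.76-fold. In all of these except S100A2, AP1510 array 1 was the AP1510 array with the lowest level. The 40 largest changes kept their calls and signs in every refit that left out 1 array and in the other gene-level settings that tested them. They were chosen from the same values by size and separated arrays. With 1 array left out their signs therefore could not turn, and their kept calls are no independent check. The setting without dim genes left out 7 of them, C1S, SERPINB3, SLC7A2, SAMSN1, TNFRSF11B, TLR6 and SLC2A12.

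The ErbB receptors changed little. ERBB2, whose probe set may read the chimera and the cells' own gene together, stood at 10.97, 10.90 and 11.01 with heregulin, against 10.93, 10.79 and 11.01 with AP1510 (log2 change 0.05 ± 0.08, adjusted p = 0.79). ERBB3 had a change of -0.03 ± 0.10 (adjusted p = 0.92) and ERBB4 one of 0.01 ± 0.11 (adjusted p = 0.98), and in all of these receptors the groups overlapped. EGFR stood at 9.40, 9.24 and 9.17 with heregulin, against 8.93, 8.69 and 8.92 with AP1510 (log2 change 0.42 ± 0.09, adjusted p = 0.0094), and it missed the threshold without AP1510 array 2 (adjusted p = 0.058). ERRFI1, a feedback inhibitor that binds active ErbB kinases, changed most, at 10.76, 10.75 and 10.79 with heregulin, against 9.70, 9.42 and 9.66 with AP1510 (log2 change 1.18 ± 0.09, adjusted p = 2.9e-07). Of the ligands, EREG rose 1.31-fold, while BTC and NRG4 fell 1.33-fold and 1.35-fold and each missed the threshold in 4 of the 12 refits (adjusted p up to 0.14 without AP1510 array 2 and 0.12 without AP1510 array 1). LRIG3, a relative of the ErbB inhibitor LRIG1, fell 1.45-fold. In all, 3 of 19 measured members rose and 3 fell, and without heregulin array 1 or AP1510 array 3 the number fallen was 1.

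ERK feedback and output genes were lower with heregulin in 7 of 20 cases, with 0 higher (1 was higher at an unadjusted p under 0.05) and a median change of -0.26. PHLDA1 fell most, at 7.33, 7.19 and 7.42 with heregulin, against 8.55, 9.06 and 9.09 with AP1510 (log2 change -1.59 ± 0.13, adjusted p = 1.4e-06). IER3, a survival factor, fell 1.92-fold in the brightest of its 3 probe sets, which passed when all probe sets were tested (adjusted p = 0.039). The others had the same mean level, 8.82, and the same change, -0.84, so they are not separate measurements. They missed the threshold in that test (adjusted p = 0.067). DUSP4, a phosphatase that inactivates ERK, fell 1.83-fold (8.18, 8.18 and 8.58 with heregulin, against 8.66, 9.41 and 9.50 with AP1510). The inhibitor SPRED1 fell 1.57-fold and the ETS factor ETV5 1.52-fold. CCND1, cyclin D1, and SPRY2 fell 1.37-fold and 1.30-fold and missed the threshold in 4 and 8 of the 12 refits (adjusted p up to 0.15 and 0.18, both without AP1510 array 3). Immediate early genes changed in both directions, with 2 up and 2 down of 18. MYC rose 1.47-fold, at 10.41, 10.48 and 10.57 with heregulin, against 9.89, 9.92 and 10.00 with AP1510. The rises numbered 1 without heregulin array 3, AP1510 array 1 or AP1510 array 2. The falls numbered 1 without heregulin array 1, 0 without heregulin array 2, AP1510 array 2 or AP1510 array 3, and 6 without AP1510 array 1.

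The list of FOXO factors and their targets, which PI3K signalling represses through AKT, gave 4 rises and 2 falls among 18 measured. Of the 15 targets 3 rose and 2 fell, and of the 3 factors 1 rose. PDK4, a brake on glucose oxidation, rose 1.63-fold (9.86, 9.79 and 9.73 with heregulin, against 9.09, 9.0 and 9.16 with AP1510), BCL6 1.60-fold and FOXO1 itself 1.54-fold. IRS2, which couples the insulin receptor to PI3K, had a change of 0.33 and missed the threshold in 5 of the 12 refits (adjusted p up to 0.14 without AP1510 array 3). CCNG2 fell 1.37-fold, and SESN3 fell 1.36-fold but missed the threshold without heregulin array 2 or AP1510 array 2 (adjusted p up to 0.062).

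**Figure D4:**
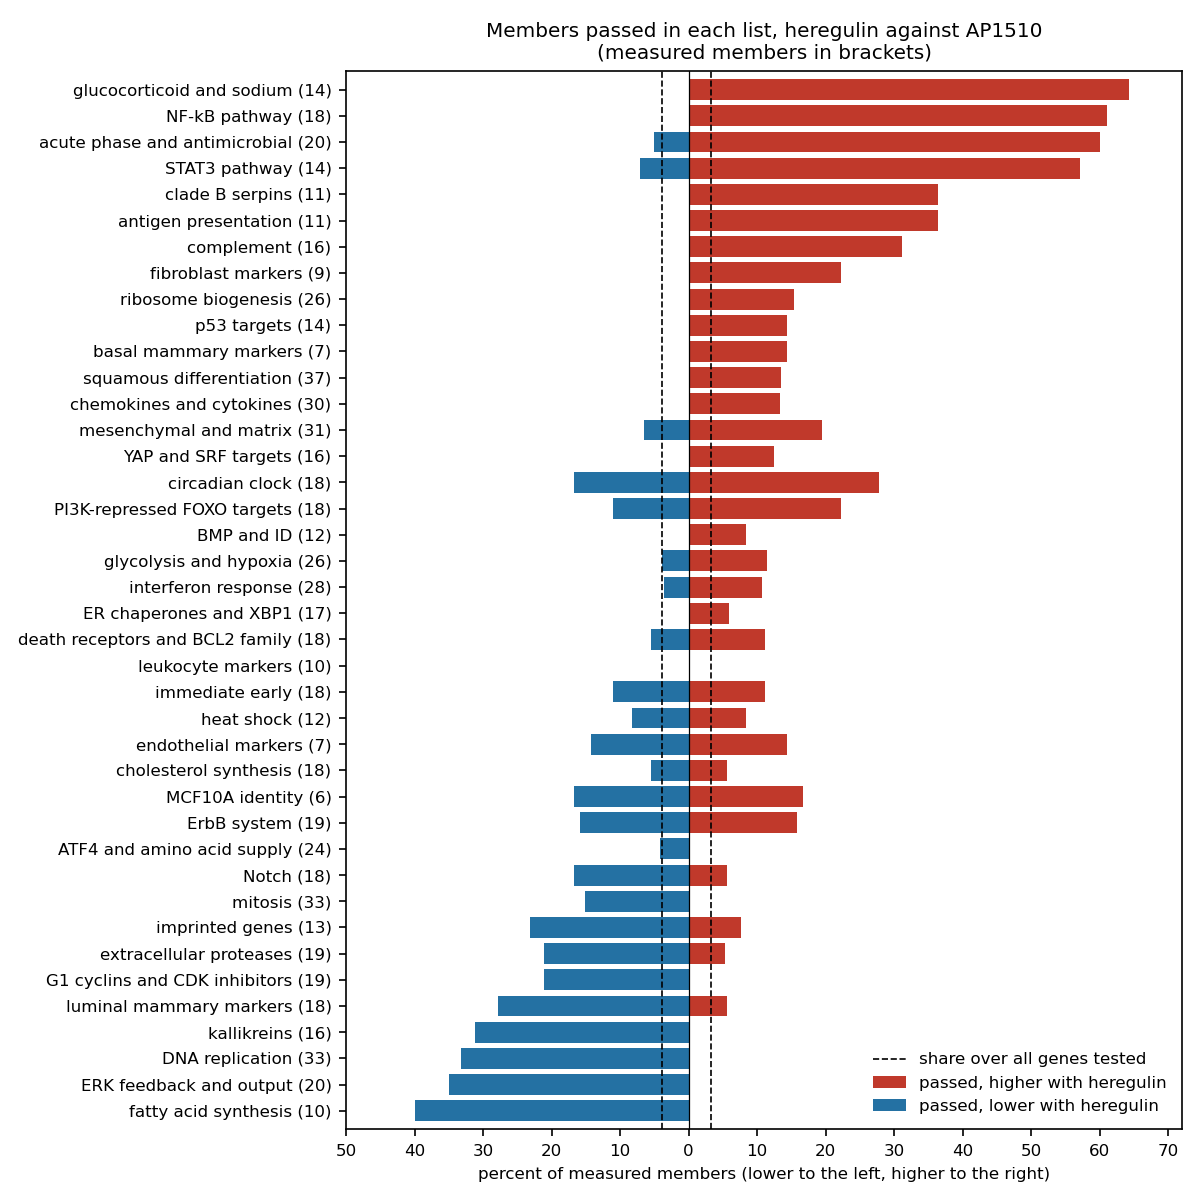
Bars give the percent of each list's measured members (their number in brackets) that passed and were higher (red, right) or lower (blue, left) with heregulin than with AP1510, and dashed lines give the share over all genes tested, 3.27% higher and 3.95% lower. The glucocorticoid and sodium list (9 of 14) and the NF-kB list (11 of 18) have the longest red bars, and fatty acid synthesis (4 of 10) and ERK feedback (7 of 20) the longest blue bars.

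Replication genes were lower with heregulin than with AP1510. All 33 measured members had negative changes, 11 passed (25 were lower and 0 higher at an unadjusted p under 0.05), and the median was -0.32. Against untreated cells, 1 of the 33 was called lower and 0 higher with heregulin, and 2 were called higher and 0 lower with AP1510. CDC6, which loads the replicative helicase, stood at 6.36, 5.82 and 6.26 with heregulin, against 6.94, 6.82 and 6.84 with AP1510 (log2 change -0.72 ± 0.12, adjusted p = 0.0014). MCM6, a subunit of that helicase, stood at 6.79, 6.57 and 6.96 with heregulin, against 7.63, 7.39 and 7.32 with AP1510 (log2 change -0.67 ± 0.12, adjusted p = 0.0017). RRM2, which makes deoxynucleotides, fell 1.69-fold, MCM5 1.52-fold, the chromatin assembly subunit CHAF1B 1.49-fold and MCM2 1.42-fold. The number passed was 7 without heregulin array 2 or without AP1510 array 1, and 5 without both. Heregulin array 2 had the lowest median over the list, -0.53 against each gene's mean over 12 arrays, with -0.44 and -0.29 in heregulin arrays 1 and 3, while AP1510 array 1 had the highest of the 6, 0.08, with -0.11 and -0.12 in AP1510 arrays 2 and 3. Untreated arrays 1, 2 and 3 lay at -0.38, -0.35 and -0.40.

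Mitotic genes leaned the same way but depended on single arrays. Changes were negative in 32 of 33, 5 passed, and the number passed was 0 without heregulin array 2, 1 without AP1510 array 1, 2 without AP1510 array 3, 3 without heregulin array 1 and 11 without heregulin array 3. At an unadjusted p under 0.05 in the fit over 12 arrays, 19 were lower and 0 higher. Against untreated cells, 12 of the 33 were called higher with heregulin and 21 with AP1510, with 0 called lower in either. The mitotic regulator FOXM1 stood at 7.80, 7.65 and 7.98 with heregulin, against 8.35, 8.09 and 8.20 with AP1510 (log2 change -0.40 ± 0.10, adjusted p = 0.026), and missed the threshold in 4 of the 12 refits (adjusted p up to 0.10 without heregulin array 2). CCNE2, cyclin E2, fell 1.85-fold, at 4.37, 4.17 and 4.89 with heregulin, against 5.54, 5.29 and 5.27 with AP1510. It was 1 of 4 of 19 measured G1 cyclins and CDK inhibitors that fell, and the count was 2 without heregulin array 1 or 2 or AP1510 array 3.

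**Figure D5:**
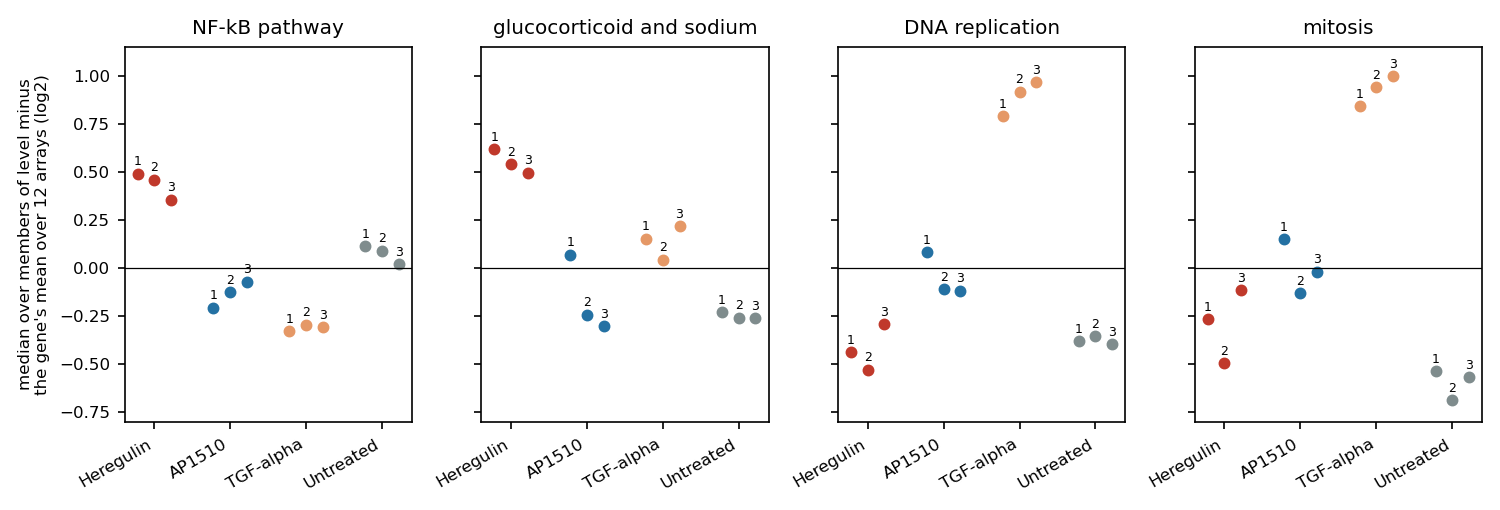
Each point is 1 array, numbered within its group, and the y axis gives the median over a list's members of the level minus the gene's mean over 12 arrays (log2). In the NF-kB panel heregulin arrays lie at 0.36 to 0.49 and AP1510 arrays at -0.21 to -0.07, in the glucocorticoid panel at 0.50 to 0.62 and -0.30 to 0.07. In the DNA replication panel heregulin arrays lie at -0.53 to -0.29 and AP1510 arrays at -0.12 to 0.08, and in the mitosis panel the groups overlap.

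Of 7 measured basal mammary markers LAMB3, a laminin chain, was the call, at 0.49, and it missed the threshold when only the 6 arrays were fitted. Luminal mammary markers fell in 5 of 18 cases and rose in 1, but the number fallen was 1 without AP1510 array 2, 2 without AP1510 array 3 and 3 without heregulin array 1 or any of 4 arrays of the other groups. EPCAM, an epithelial adhesion molecule, stood at 8.32, 7.66 and 8.44 with heregulin, against 8.84, 9.62 and 9.61 with AP1510 (log2 change -1.22 ± 0.20, adjusted p = 0.0013). MUC1, a surface mucin, rose 1.41-fold. Among mesenchymal and matrix genes 6 of 31 rose and 2 fell, with 3 risen without AP1510 array 2 and 1 fallen without heregulin array 3 or AP1510 array 3. DCN, a matrix proteoglycan that also stands on the fibroblast list, stood at 8.96, 8.46 and 8.79 with heregulin, against 7.46, 7.13 and 6.98 with AP1510 (log2 change 1.55 ± 0.13, adjusted p = 1.3e-06), and FAP, a fibroblast activation protease, rose 1.71-fold. They were the 2 of 9 fibroblast markers that passed, and what part other cells have in this was not tested. THBS1, an extracellular glycoprotein, stood at 9.36, 9.18 and 9.84 with heregulin, against 10.97, 10.73 and 10.87 with AP1510 (log2 change -1.40 ± 0.13, adjusted p = 4.2e-06). LOX, a collagen cross-linking enzyme, and TNC, the matrix protein tenascin C, each rose 2.05-fold.

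The list of extracellular proteases and their inhibitors had 4 falls and 1 rise among 19, with 2 fallen without AP1510 array 2 or 3. MMP2, a gelatinase, fell 1.78-fold (5.12, 5.68 and 5.18 with heregulin, against 6.08, 6.06 and 6.33 with AP1510), MMP13, a collagenase, fell 2.30-fold, and PLAU, the urokinase, fell 1.78-fold but missed the threshold without AP1510 array 2 or 3. Of 4 metalloproteinase inhibitors TIMP1 rose 1.58-fold, and TIMP3 fell 1.37-fold but missed the threshold without heregulin array 2 or 3 or AP1510 array 2 or 3. BMP2, a secreted growth factor, rose 1.74-fold, the only call among 12 BMP and ID genes. In the Notch list NOTCH3 rose 1.36-fold, and JAG1, a Notch ligand, fell 1.51-fold but missed the threshold without heregulin array 2 or AP1510 array 3 (adjusted p up to 0.072). The number fallen in the Notch list, 3 of 18, was 1 without any of the heregulin arrays and without AP1510 array 2 or 3. YAP and SRF targets rose in 2 of 16 cases, led by AMOTL2 at 1.43-fold.

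Of 10 fatty acid synthesis genes 4 fell, with 0 higher (0 were higher at an unadjusted p under 0.05), and the count was 4 in every refit that left out 1 array. ME1, which supplies NADPH, fell 1.53-fold (8.10, 7.73 and 7.96 with heregulin, against 8.61, 8.55 and 8.46 with AP1510), the elongase ELOVL6 1.52-fold, the desaturase SCD 1.45-fold and the regulator SREBF1 1.39-fold. Cholesterol synthesis had 1 rise and 1 fall of 18, and each was lost in 10 of the 12 refits. In the glycolysis and hypoxia list CA12, a carbonic anhydrase, rose 2.51-fold (6.80, 6.92 and 6.60 with heregulin, against 5.70, 5.25 and 5.38 with AP1510) and HK2, which starts glycolysis, rose 1.70-fold. That list had 3 rises and 1 fall among 26, and the fall was lost without heregulin array 1 or 2 or AP1510 array 2 or 3. Ribosome biogenesis genes rose in 4 of 26 cases with a median change of 0.24, but the count was 0 without AP1510 array 2, 1 without heregulin array 3 or AP1510 array 3, 2 without any of 4 arrays of the other groups, and 9 without AP1510 array 1. CRYAB, a small heat shock protein, fell 2.23-fold and HSPH1 rose 1.41-fold, the calls among 12 heat shock genes. Calls in the lists of ER chaperones (1 of 17, XBP1 at 1.35-fold), amino acid supply (1 of 24), p53 targets (2 of 14) and death receptors and BCL2 proteins (3 of 18) were few, and in the last of these TNFSF10, the death ligand TRAIL, fell 1.74-fold and missed the threshold without AP1510 array 2 (adjusted p = 0.064) or AP1510 array 3. The amino acid call was lost without heregulin array 2 or AP1510 array 2 or 3, and 1 of the p53 target calls without heregulin array 1 or 3 or AP1510 array 2 or 3. The rises in the death receptor list numbered 0 without heregulin array 1 or 3 or AP1510 array 3, and 1 without heregulin array 2 or AP1510 array 2.

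The levels in untreated cells place both treatments, with the caution that these contrasts share arrays and are set side by side only. Heregulin minus untreated had 8.5% of genes called and AP1510 minus untreated 1.47%. Of the 603 genes higher with heregulin than with AP1510, 366 (60.7%) also lay above untreated with heregulin while AP1510 minus untreated was not called, and 187 (31%) were called in neither. Of the 728 lower genes, 416 (57.1%) lay below untreated with heregulin while AP1510 minus untreated was not called, and 256 (35.2%) were called in neither. All 40 of the largest changes were called for heregulin against untreated, and 8 of them for AP1510 against untreated. For C1S the changes against untreated were 2.86 with heregulin and -0.17 with AP1510 (adjusted p = 4.2e-11 and 0.61). For PEG10 they were -2.49 with heregulin and 0.42 with AP1510 (adjusted p = 2.4e-08 and 0.24).

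The other natural ligand, TGF-alpha, which binds EGFR, gives a second yardstick. Heregulin minus TGF-alpha had 21.6% of genes called. Of the 603 higher genes, 316 (52.4%) were also higher with heregulin than with TGF-alpha, 50 were lower and 237 were not called. Of the 728 lower genes, 299 (41.1%) were lower with heregulin than with TGF-alpha, 91 were higher and 338 were not called. CFB was 5.61 log2 units higher with heregulin than with TGF-alpha (adjusted p = 2.2e-14). Of the 20 largest rises 17 were called against TGF-alpha, and of the 20 largest falls 10. Of these falls PEG10, S100A2, SEMA3A, PHLDA1 and TLR6 were lower with heregulin than with TGF-alpha. VTCN1, AGR2, SLC4A11, CPA4 and LXN were higher with heregulin. The differences of heregulin from TGF-alpha were 0.07 for KLK5, -0.01 for KLK7 and -0.03 for KLK6 (adjusted p = 0.85, 0.97 and 0.94). Those for IL1R2 and SCNN1G were 0.18 and -0.08 (adjusted p = 0.61 and 0.86). Of the 13 measured metallothioneins, 2 were called higher with heregulin than with TGF-alpha and 0 lower. All 33 replication genes and all 33 mitotic genes were called lower with heregulin than with TGF-alpha. ETV5 was 3.35 log2 units lower and S100A2 3.14 log2 units lower with heregulin than with TGF-alpha.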

How the data were processed

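RNA of 12 MCF10A-HER2-FKBP-HA cultures in 4 groups of 3 was hybridised to Affymetrix arrays, 1 array a sample. The authors deposited 1 log2 intensity per probe set and array from RMA, per the submitters' processing notes, with a version not given in the sources used here. Signal over background and the number of arrays, not a read depth, limit precision.

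Of 33297 probe sets 19460 named 1 gene (19429 matched RefSeq), 1754 several and 12083 none. Of the 769 genes with several probe sets the brightest over 12 arrays was kept, which left 18417 genes. A limma 3.58.1 model in R 4.3.3 with 1 mean per group was fitted over all 12 arrays (8 residual and 7.55 prior degrees of freedom, median moderated SD 0.128), with Benjamini-Hochberg adjustment over all genes and a threshold of 0.05. The fit was tested on simulated data.

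The text names the 20 largest rises and 20 largest falls among called genes whose arrays did not overlap, the markers CFB, SAA2, S100A9, PEG10, KLK5 and KLK7, the 4 ErbB receptors and called members of 40 lists. Of these, the members and lists were chosen with earlier results of these data known, and 5 gene families were picked after their values were seen. Promoters came from RefSeq (GRCh38.p14), where SAA1, SAA2, PEG10 and C1S were not matched. Alternatives changed the arrays in the fit, normalization, filter on dim genes, probe set rule, variance prior and array weights. Array numbers follow accession order and pair nothing.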

Additional observations from a re-analysis of the deposited data

Results flagged for a closer look

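A set of 13 genes lay on opposite sides of untreated cells under the 2 treatments, each side called at an adjusted p under 0.05 by limma. The test of the difference is the heregulin minus AP1510 contrast, and both sides share the untreated arrays.

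With heregulin above and AP1510 below untreated cells, the heregulin minus AP1510 changes were 4.60 for CFB, 3.01 for S100A9, 2.58 for S100A8, 2.38 for SOD2, 2.37 for MT1X, 2.24 for SLC39A8, 1.71 for CXCL1, 1.53 for TNFAIP3 and 1.07 for the pseudogene ZBED10P. CFB was 3.94 above untreated with heregulin and -0.66 from it with AP1510 (limma adjusted p = 5.3e-12 and 0.0065). S100A9 gave 2.01 and -0.99 (2.6e-07 and 0.0027). TNFAIP3 gave 0.93 and -0.60, and its AP1510 side passed narrowly (4.9e-04 and 0.049), as did that of ZBED10P (0.038). The contrasts against untreated were not refitted with arrays left out.

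With heregulin below and AP1510 above, they were -1.93 for KLK6, -1.88 for S100A2, -1.17 for CA2 and -0.90 for PSIP1. S100A2 changed by -0.61 with heregulin and 1.27 with AP1510 against untreated (limma adjusted p = 0.0058 and 1.4e-04). KLK6 changed by -1.12 and 0.81, and its AP1510 side passed narrowly (9.5e-04 and 0.040), as did the heregulin side of CA2 (0.044).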

How the results depend on the processing

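None of the 40 largest changes lost its call or turned its sign in the settings that tested it gene by gene. These genes were chosen from the same values by size and separated arrays, so this is no independent check of them. Of the 40, 7 were not tested in the setting without dim genes, and testing all probe sets gave counts only. The number of genes called depended on the arrays. Leaving out 1 array gave 818 to 1323 calls against 1331, with 396 to 619 higher, 422 to 704 lower, 128 to 171 past 2-fold and 134 to 188 list members. The lowest totals came without AP1510 array 2 (818, with 396 higher and 422 lower) and AP1510 array 3 (859, with 426 lower), and 452 were lower without heregulin array 2. A fit of only the 6 arrays gave 743 calls, 369 higher and 374 lower, and 115 list members. Array weights gave 2452, 1273 higher and 1179 lower. Without heregulin array 2 and AP1510 array 1 together, chosen after seeing the data, there were 1174 calls. Testing all 33297 probe sets, also chosen later, gave 1079.

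The heregulin-higher share of calls was 45.3%, and 53.6% without heregulin array 2 and 51.3% over all probe sets. Renewed quantile normalization gave 1460 calls and centring 1278. The causes were not tested. No paired analysis was possible because the labels give no replicate numbers that the groups share.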

Other observations

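Probe sets that name several genes or none were outside the comparison. Over all 33297 probe sets, 41 of 1754 that name several genes (2.34%) and 157 of 12083 that name none (1.3%) differed between heregulin and AP1510 cells in limma, against 881 of 19460 (4.53%) that name 1 gene.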
